A study of Mus musculus with 17 samples.

Results

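Cxcl1, Cxcl2, Cxcl3 and Cxcl5 are 4 genes for neutrophil-attracting chemokines that lie close together on mouse chromosome 5, and they were followed by RNA polymerase II chromatin immunoprecipitation and sequencing in bone marrow-derived macrophages. They are 4 of 21887 annotated protein-coding genes and were chosen with their own summit ranks in these libraries in view, so their ranks are given as a description. The tested libraries came from N4bp1 knockout (KO) macrophages given R837 for 2, 4 or 6 h, and the others came from wild-type (WT) macrophages given R837 for 2, 4 or 6 h and from untreated KO and WT macrophages. Each of these 8 groups held 2 libraries. R837 is imiquimod, a small-molecule agonist of the endosomal receptor TLR7, and N4BP1 is an RNA-cutting protein that restrains inflammatory cytokine production. The labels name no allele for the KO, no dose of R837 and no age, sex or strain, and they do not say whether the 2 libraries of a group came from separate cultures or animals. A p-value here therefore speaks of variation among these libraries alone, and that variation could be technical.

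CXC chemokines that carry the ELR amino acid motif bind the receptor CXCR2 on neutrophils and draw these cells out of blood into inflamed tissue. Macrophages transcribe them within hours of Toll-like receptor stimulation, through NF-kB sites in their promoters, and their mRNAs are short-lived. CXCL1 and CXCL2 are the main macrophage-derived members in mouse, CXCL3 is a close relative of both, and CXCL5 is better known from epithelial cells and platelets.

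On GRCm38 the genes lie at chr5:90891245-90893121 for Cxcl1 (gene ID 14825), chr5:90903899-90905938 for Cxcl2 (gene ID 20310), chr5:90786101-90788093 for Cxcl3 (gene ID 330122) and chr5:90759298-90761625 for Cxcl5 (gene ID 20311). Cxcl1, Cxcl2 and Cxcl3 are read from the plus strand. RefSeq promoter sequences on GRCm38.p6 matched 3 of the 4 genes, and the 250 bases before each annotated start are shown because polymerase summits lay close to these starts in several libraries and because the promoters can be compared with one another. Capitals mark the NF-kB type motif GGGNNTTTCC on either strand and the TATA-type motif ATAAAAG.
Cxcl1: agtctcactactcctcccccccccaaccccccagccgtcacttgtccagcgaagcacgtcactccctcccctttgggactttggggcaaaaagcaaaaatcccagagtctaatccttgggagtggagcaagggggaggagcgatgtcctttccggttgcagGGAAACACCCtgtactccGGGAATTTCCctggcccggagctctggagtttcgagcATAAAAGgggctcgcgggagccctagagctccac
Cxcl2: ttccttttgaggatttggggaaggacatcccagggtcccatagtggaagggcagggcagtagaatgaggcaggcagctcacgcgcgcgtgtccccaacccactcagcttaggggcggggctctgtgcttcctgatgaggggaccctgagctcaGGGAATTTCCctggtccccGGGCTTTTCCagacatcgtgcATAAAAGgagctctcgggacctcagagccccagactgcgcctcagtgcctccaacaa
Cxcl3: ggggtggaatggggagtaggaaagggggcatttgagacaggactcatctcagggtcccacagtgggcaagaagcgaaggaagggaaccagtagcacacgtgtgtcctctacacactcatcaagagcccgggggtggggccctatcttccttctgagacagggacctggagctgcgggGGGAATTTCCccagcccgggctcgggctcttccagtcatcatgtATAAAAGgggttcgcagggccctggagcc

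All 3 promoters held the same match GGGAATTTCC, with its first base at -71 in Cxcl1, -97 in Cxcl2 and -73 in Cxcl3, counted from the base before the annotated start as -1. Cxcl1 held a further match on the reverse strand, printed as GGAAACACCC from -89 to -80. Cxcl2 held a further match on the plus strand, GGGCTTTTCC from -78 to -69. The motif ATAAAAG began at -34 in Cxcl1, -57 in Cxcl2 and -29 in Cxcl3. Among 32851 promoters of the same length, 1.41% held GGGNNTTTCC on either strand, 4.83% held ATAAAAG on either strand and 0.07% held both. The AP-1 type motif TGANTCA, which reads as the same motif on both strands, had no match in these 3 windows and a match in 6.75% of all promoters. No overlap between the different motifs was found in the positions given above. In pairwise alignment 56.1% of columns were identical between Cxcl2 and Cxcl3, 51.3% between Cxcl1 and Cxcl3 and 50.2% between Cxcl1 and Cxcl2. A motif match describes letters only and shows no binding.

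The deposited lists held 8394 to 29760 summits a library. The KO lists at 4 h and 6 h held 22157 to 29760 summits, the WT lists at 4 h and 6 h held 8394 to 19710, the KO lists at 2 h 9402 to 13825 and the WT lists at 2 h 10769 to 11010, and the untreated lists 20607 to 24720. Replicate 2 of KO at 6 h stood apart by its highest score of 564, against at most 320.4 elsewhere. Cell type markers and N4bp1 were looked up only in the 8394 best summits of each list (shortened lists, defined below). Of the macrophage markers 9 of 9 had a summit in at least 1 shortened list. The sum of their rank scores (defined below) was 32.1 to 41.2 in KO and 38.3 to 49.7 in WT libraries with R837. In untreated libraries it was 39.1 to 42.7. Of the neutrophil markers 2 of 10 had a summit in any shortened list. Their sum was 0 to 1.44 in KO libraries with R837 and 0 in all WT and untreated libraries. S100a9, Ly6g, Elane, Mpo and Cxcr2 had none in any shortened list. Fibroblast markers (0 of 7) and T and B cell markers (0 of 5) had none, and 2 of 5 dendritic cell markers had one, with a sum of 0.37 to 5.15 in KO libraries with R837, 2.77 to 5.05 in WT libraries with R837 and 0.37 to 1.61 in untreated libraries. Zbtb46, Ccr7 and Siglech, of the dendritic list, had none. In shortened lists the targeted gene N4bp1 had a summit in 6 of 6 KO and 6 of 6 WT libraries with R837. It had one in 0 of 4 untreated libraries. Its rank scores with R837 were 2.29 to 3.96 in KO and 1.27 to 3.13 in WT. The labels do not give the deleted part of N4bp1, so a summit there does not check the genotype.

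A summit is the position of highest enrichment in a called peak, and its rank is its place in a library when all summits are ordered by the authors' score, 1 being the top. A gene was given the best-ranked summit between 1 kb before and 1 kb after its annotated ends. Where groups are compared, lists were shortened to their 8394 best summits, and the rank score is log2 of 8395 divided by the rank, from 0 where no summit was in the shortened list to 13.04 for the top summit. A rank score is a place in a list and not an amount of polymerase. In bulk samples, fewer cells carrying polymerase at a gene and less polymerase per cell cannot be told apart.

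Cxcl1, the main neutrophil attractant of the group in mouse, had its best summit at ranks 29 and 20 in the KO libraries of 2 h, at ranks 115 and 421 in those of 4 h and at ranks 49 and 43 in those of 6 h. In WT libraries its best summit was at ranks 84 and 109 after 2 h and at ranks 4140 and 1170 after 4 h, and after 6 h it was at rank 5234 in replicate 1 with no summit in replicate 2. None of the 4 untreated libraries had a summit in the Cxcl1 region. The KO libraries stood nearer the top than the WT libraries of the same time at all 3 times, without overlap. At 4 h this order holds only with the 1 kb extension of the region. The share of all genes without such overlap was not counted. The genes were chosen from these ranks, so nothing is read from the order. The WT libraries were high at 2 h and low or without a summit later. The mean rank score of Cxcl1 was 7.07 ± 1.59 in KO libraries with R837 and 2.91 ± 2.91 in WT libraries with R837 (SD, n = 6 each).

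Cxcl2, known as MIP-2 and made in bursts by stimulated macrophages, had ranks 100 and 26 in the KO libraries of 2 h, ranks 20 and 31 in those of 4 h and ranks 25 and 34 in those of 6 h. In WT its ranks were 49 and 38 in the libraries of 2 h, 434 and 99 in those of 4 h and 715 and 357 in those of 6 h. No untreated library had a summit in the Cxcl2 region. The genotypes overlapped at 2 h, where the lowest-placed of the 4 libraries was KO replicate 1, and were apart at 4 h and 6 h. Here too the share of all genes without overlap was not counted, and nothing is read from the order. The mean rank score of Cxcl2 was 7.98 ± 0.82 in KO libraries with R837 and 5.67 ± 1.78 in WT libraries with R837 (SD, n = 6 each).

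Cxcl3 had summits in 5 of 6 KO libraries with R837, 0 of 6 WT libraries with R837 and 0 of 4 untreated libraries. In KO at 2 h replicate 1 had none and replicate 2 had rank 8993 of 9402. Both KO libraries of 4 h had it, at ranks 6788 and 5367, and so did both KO libraries of 6 h, at ranks 8771 and 12646. These summits stood far behind those of Cxcl1 and Cxcl2 in the same libraries, and those of the 2 KO libraries at 4 h were the only ones inside the shortened lists. The KO lists at 4 h and 6 h were also longer than the WT lists of those times. The part of list length in the Cxcl3 pattern was not tested.

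Cxcl5 had 1 summit in all 16 libraries, in KO at 6 h replicate 2, at rank 26371 of 29760 and 203 bp from the lower-coordinate end of the gene. That library is the one with the highest score and the longest list. Cxcl5 was in no shortened list and was not tested.

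Cxcl2 was ahead of Cxcl1 in 10 of 12 libraries with R837, in 4 of 6 KO and 6 of 6 WT libraries, and the exceptions were both KO libraries at 2 h. Cxcl1 was ahead of Cxcl3 in 11 of 12 libraries with R837, and in WT at 6 h replicate 2 neither had a summit. The order of Cxcl2 and Cxcl1 in KO libraries lay within the spread of their rank scores.

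**Figure D1:**
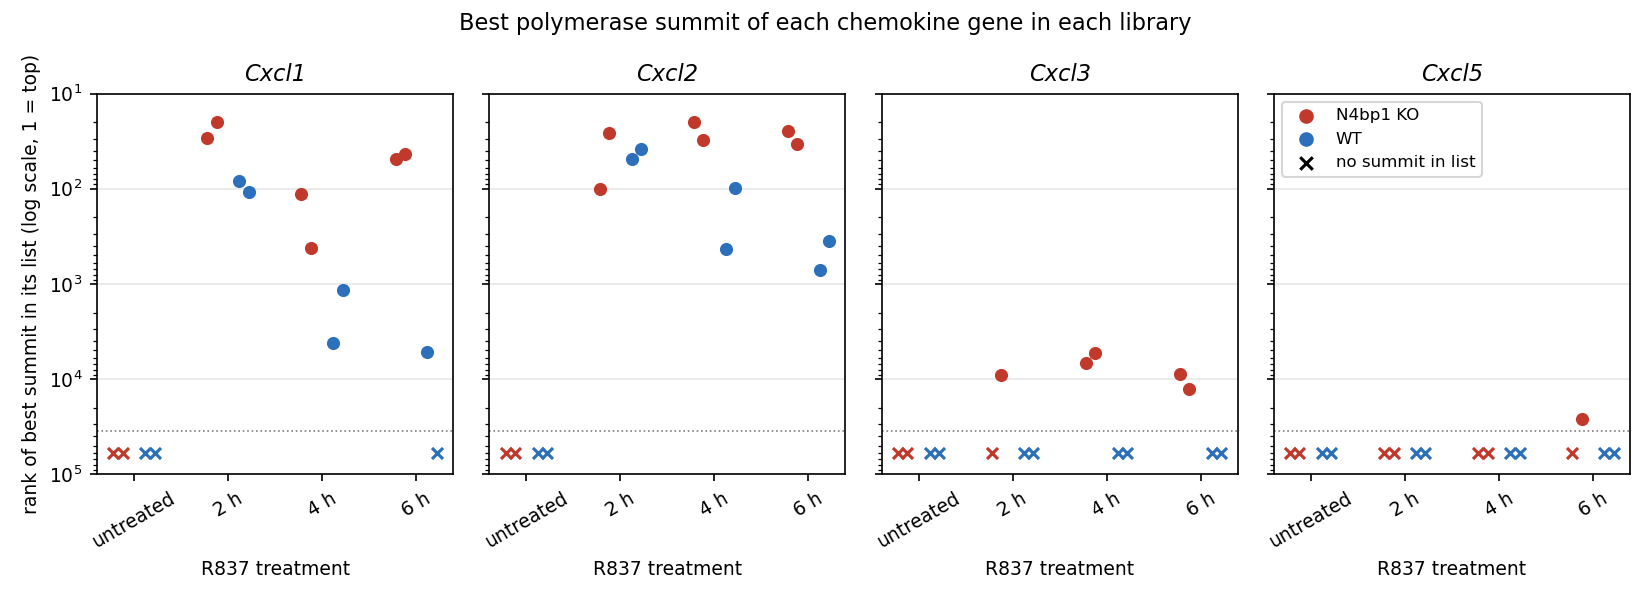
Rank of the best summit of each chemokine gene in each library on a log scale with rank 1 at the top, by R837 time, for KO libraries in red and WT libraries in blue. Crosses mark libraries with no summit, and the KO libraries of Cxcl1 and Cxcl2 stay between rank 20 and 421 at all 3 R837 times while the WT libraries fall to rank 5234 or to no summit for Cxcl1 and to rank 715 for Cxcl2.

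R837 libraries were set against untreated libraries in a fit over 8475 genes with a summit in at least 2 shortened lists. In these lists 6430 to 6689 genes had a summit in untreated libraries and 2693 to 5885 in R837 libraries. The rank score of Cxcl2 was higher by 6.82 ± 0.45 (SE) with R837 than in untreated libraries, and that of Cxcl1 was higher by 4.99 ± 0.41. Both are differences from a floor of 0 in all 4 untreated libraries. They are 2 of the 3 chemokine genes tested that passed the threshold (limma, adjusted p of 0.05), where 5.77% of all genes tested were called higher and 29.4% lower. Cxcl3 was tested through its 2 KO libraries at 4 h only, and its difference was 0.08 ± 0.06. The median over the 4 genes, with Cxcl5 at 0, was 2.53 and that over all genes tested was -0.33. These values chose the genes, so nothing is read from the counts.

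By time, KO libraries with R837 were set against untreated KO libraries. The difference for Cxcl1 was 8.45 ± 0.72 at 2 h, 5.25 ± 0.72 at 4 h and 7.51 ± 0.72 at 6 h. For Cxcl2 it was 7.36 ± 0.78 at 2 h, 8.40 ± 0.78 at 4 h and 8.17 ± 0.78 at 6 h. Both genes were called at each time, where 2.64%, 3.78% and 5.12% of all genes were called higher at 2, 4 and 6 h. Cxcl3 was called at 4 h with a difference of 0.48 ± 0.11, a call that rests on 2 libraries near the floor. The genes were chosen from these values, so nothing is read from the calls.

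WT libraries with R837 were set against untreated WT libraries in the same way. The difference for Cxcl1 was 6.46 ± 0.72 at 2 h, 1.93 ± 0.72 at 4 h and 0.34 ± 0.72 at 6 h, and it was called at 2 h. For Cxcl2 it was 7.60 ± 0.78 at 2 h, 5.34 ± 0.78 at 4 h and 4.05 ± 0.78 at 6 h, and it was called at each time. The background of genes called higher in WT was 3.53% at 2 h, 3.53% at 4 h and 3.1% at 6 h. Here too nothing is read from the calls of the chosen genes. Codes in the peak names place untreated and 2 h libraries in 1 series and 4 h and 6 h libraries in others, so a difference between series and the time cannot be told apart here. KO and WT of the same time share a series.

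KO libraries were then set against WT libraries of the same time. The genes were chosen from these ranks, so nothing is read from their calls or p-values at any time. At 2 h the difference in rank score was 1.99 ± 0.72 for Cxcl1 and -0.24 ± 0.78 for Cxcl2. Limma called 0 of the 3 genes tested, where 0.0118% of all genes were called higher. An unadjusted p under 0.05 was found for 1 of the 3, beside 437 of all 8475 genes in either direction. At 4 h the difference was 3.32 ± 0.72 for Cxcl1 and 3.06 ± 0.78 for Cxcl2. Limma again called 0 of 3, where 0.165% of all genes were called higher. All 3 had an unadjusted p under 0.05, as did 601 of all 8475 genes in either direction. Of these, Cxcl3 was tested through its 2 KO libraries at 4 h only. At 6 h it was 7.17 ± 0.72 for Cxcl1 and 4.12 ± 0.78 for Cxcl2, and both were called, where 1.13% of all genes were. Without KO replicate 2 at 6 h, the library that stands apart, the 6 h difference was 7.08 for Cxcl1, still called, and 4.34 for Cxcl2, no longer called. The Cxcl2 call at 6 h was also lost without either WT library of 6 h.

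Over the 3 R837 times the difference between KO and WT was 4.16 ± 0.41 for Cxcl1 and 2.31 ± 0.45 for Cxcl2. These were the first and the sixth of 8475 genes, ordered from the highest difference down. Both were called, where 0.448% of all genes were called higher, and the median of all genes tested was 0.11. The genes were chosen from these values, so nothing is read from their places or calls. With Cxcl5 at 0 the median over the 4 genes was 1.23. In all, 38 genes were called higher and 25 lower in KO. With the lists left at their deposited lengths 231 were called higher and 9 lower, and with only R837 libraries in the fit 81 higher and 23 lower. With 1 rank per gene 17 were called higher and 30 lower, and by the number of summits 181 higher and 74 lower. The Cxcl1 call was kept in each of 16 fits that left out 1 library. The Cxcl2 call was lost in 13 of these 16, among them the fit without KO replicate 2 at 6 h, where the difference was 2.38. The longer KO lists at 4 h and 6 h accompany these differences, and their part was not tested beyond shortening all lists to the same length. The shortened lists still differed in how many genes had a summit. At 4 h and 6 h these numbered 4724 to 5885 in KO and 2693 to 4677 in WT libraries. At 2 h they numbered 3277 to 4984 in KO and 3449 to 3645 in WT libraries. The part of this was not tested.

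**Figure D2:**
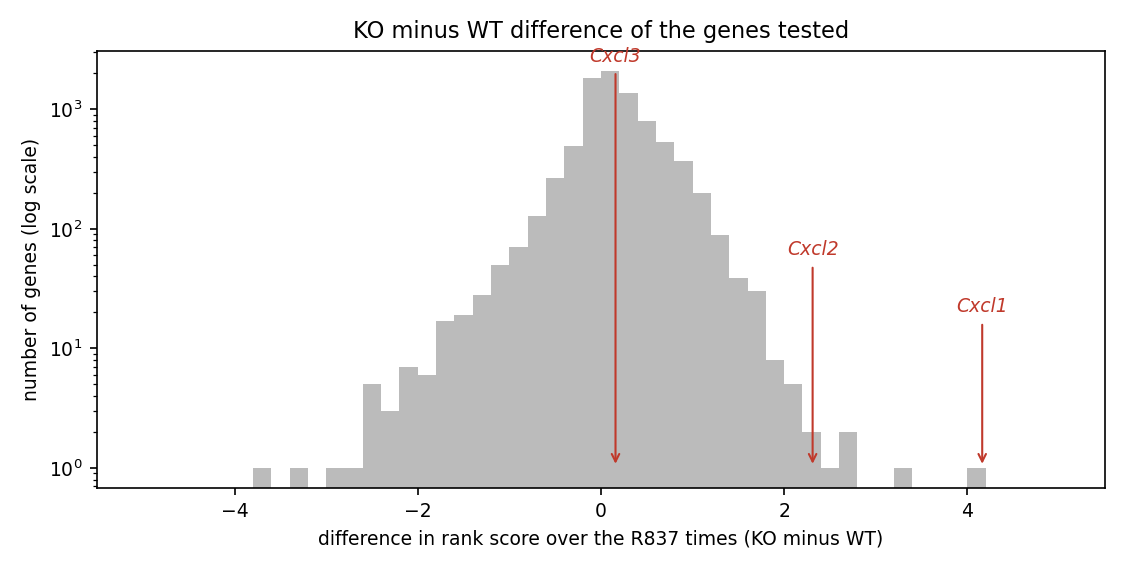
Histogram of the difference in rank score between KO and WT libraries over the 3 R837 times, with the number of genes on a log scale, for the 8475 genes tested. Arrows mark Cxcl1 at 4.16, Cxcl2 at 2.31 and Cxcl3 at 0.16, and the genes were chosen from these values.

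The change from 2 h to the later times was described in each genotype. These ranks also served to choose the genes, so nothing is read from their calls or p-values. In KO libraries the mean rank score at 4 h and 6 h minus that at 2 h was -2.06 ± 0.62 for Cxcl1 and 0.92 ± 0.68 for Cxcl2. Limma called 0 of 3, where 1.09% of all genes were called lower. An unadjusted p under 0.05 was found for 2 of the 3, beside 1318 of all 8475 genes in either direction. In WT libraries it was -5.32 ± 0.62 for Cxcl1 and -2.91 ± 0.68 for Cxcl2, with both called, where 2.02% of all genes were called lower. The Cxcl2 call was lost in 10 of 16 fits that left out 1 library and under 4 of 11 other settings, and the Cxcl1 call in 0 of 16 and under 2 of 11. The difference between these changes, KO minus WT, was 3.26 ± 0.88 for Cxcl1 and 3.83 ± 0.96 for Cxcl2. Limma called 0 of 3 for this difference, where 0.0118% of all genes were called higher. An unadjusted p under 0.05 was found for 2 of the 3, beside 463 of all 8475 genes in either direction.

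Since every untreated library is at 0 for all 4 genes, the response to R837 in KO minus that in WT has the same size as the difference over R837 times and a larger error. It was 4.16 ± 0.83 for Cxcl1, which was called, and 2.31 ± 0.91 for Cxcl2, which was not, where 0.555% of all genes were called higher. Both genes were chosen from these values, so nothing is read from the call. The Cxcl1 call was lost in 12 of 16 fits that left out 1 library and under 7 of 11 other settings.

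The place of the best summit along the gene is a measure other than its rank, used in choosing the genes only to put a summit inside a region. In KO libraries the best Cxcl1 summit lay 212 and 434 bp after the annotated start at 2 h, then 2499 and 2484 bp after it at 4 h, then 234 and 157 bp after it at 6 h. In WT libraries it lay 186 and 1593 bp after the start at 2 h, then 783 and 845 bp after it at 4 h, then 1781 bp after it in the 1 library with a summit at 6 h. The KO summits thus lay near the start at 2 h and 6 h and past the gene end at 4 h, while replicates of WT at 2 h differed by most of the gene.

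For Cxcl2 the best summit lay 919 and 368 bp after the start in KO libraries at 2 h, then 1413 and 2189 bp after it at 4 h, then 333 and 351 bp after it at 6 h. In WT libraries it lay 644 and 1884 bp after the start at 2 h, then 2610 and 1856 bp after it at 4 h, then 1856 and 649 bp after it at 6 h. At 4 h all 4 summits were in the second part of the gene or past its end. A peak has 1 summit. The 2 WT replicates put it toward different ends of the gene at 2 h for Cxcl1 and at 2 h and 6 h for Cxcl2. The 2 KO replicates of each time put it toward the same end for both genes.

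Place was scored from 0 at the annotated start to 1 at the annotated end and fitted over the 12 libraries with R837 with a term for genotype and one for time. The KO minus WT difference was 0.01 ± 0.28 for Cxcl1 and -0.32 ± 0.15 for Cxcl2, with adjusted p-values of 1 and 0.959 over 4688 genes (limma), of which 0.149% were called in either direction. The 4 h minus 2 h and 6 h difference was 0.53 ± 0.29 for Cxcl1 and 0.56 ± 0.16 for Cxcl2, with adjusted p-values of 0.698 and 0.18 over 4253 genes (limma), of which 2.3% were called in either direction. The unadjusted p of Cxcl2 at 4 h was 0.00687 by limma, and it did not hold after adjustment. Since 4 h libraries have a code series of their own, the series and the time cannot be told apart.

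**Figure D3:**
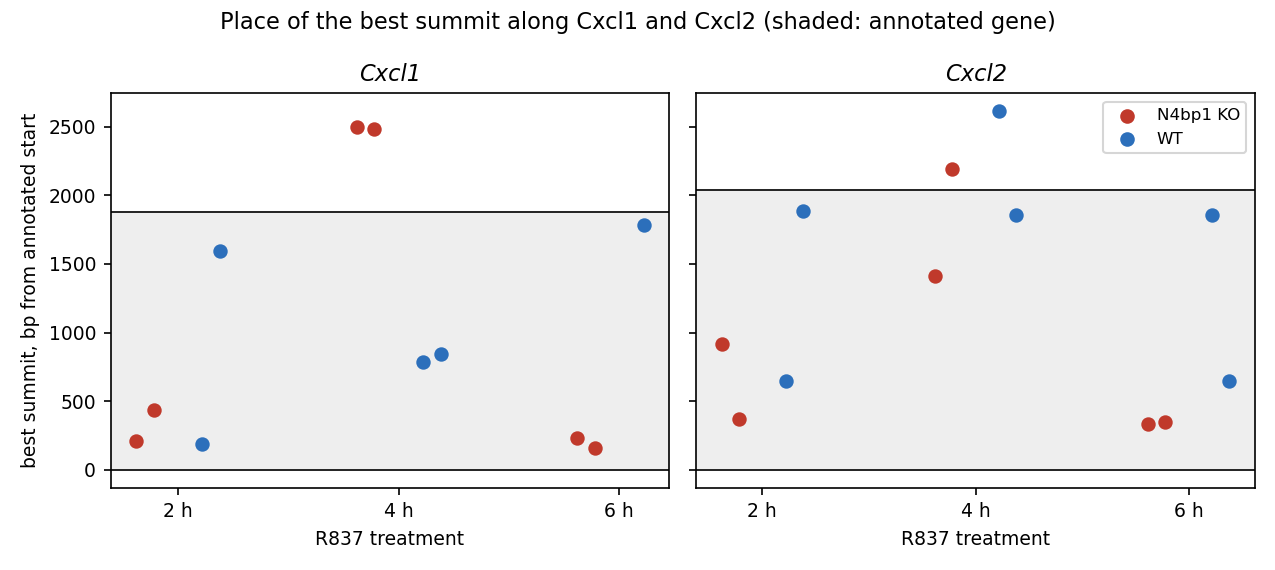
Distance in bp from the annotated start to the best summit of Cxcl1 and Cxcl2 in each library with R837, KO in red and WT in blue, with the annotated gene shaded. KO summits of Cxcl1 lie at 157 to 434 bp at 2 h and 6 h and at 2484 and 2499 bp at 4 h.

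The edge of the gene region matters for Cxcl1 and Cxcl2. The KO summits of Cxcl1 at 4 h, at ranks 115 and 421, lay 623 and 608 bp past the annotated end and inside the 1 kb extension. The nearest summits outside it were in WT libraries, 1243 bp past the end at rank 8218 and 1445 bp past it at rank 14386 at 4 h, and 1487 bp past it at rank 6247 at 6 h. The WT summits that set the ranks at 4 h, 783 and 845 bp after the start, lay within the gene. With no extension Cxcl1 had no summit in KO libraries at 4 h, so its call there against untreated KO libraries was lost and the KO minus WT difference at 4 h turned to -1.93, with no call. Over the 3 R837 times the KO minus WT difference of Cxcl1 was then 2.41, still called, and that between responses was 2.41, no longer called. The Cxcl1 change from 2 h to the later times was then -4.69 in KO libraries, now called, and it differed from that in WT libraries by 0.63, with no call. For Cxcl2 the nearest summits inside the region lay 546 to 571 bp past the end in WT libraries and 794 and 808 bp before the start in KO libraries. The nearest outside lay 1790 to 1931 bp past the end, all in KO libraries. With no extension the Cxcl2 difference between KO and WT was 1.15 at 4 h, with no call. At 6 h it was 4.12 and over the 3 R837 times 1.68, both no longer called. Against untreated KO libraries Cxcl2 then lost its calls at 2 h and 4 h and kept that at 6 h. Against untreated WT libraries it lost those at 4 h and 6 h and kept that at 2 h. Its change from 2 h to the later times in WT was -3.98, no longer called.

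For Cxcl1 and Cxcl2 the number of summits in the region, in lists as deposited, went the other way from the ranks. The Cxcl1 region held 1 summit in each of 6 KO libraries with R837 and 0 to 3 in WT libraries with R837, in total 6 in KO and 9 in WT. The Cxcl2 region held 1 to 2 summits in KO libraries with R837 and 1 to 3 in WT libraries with R837, in total 8 in KO and 10 in WT. By the number of summits in the shortened lists neither Cxcl1 nor Cxcl2 was called between KO and WT. For the other 2 genes the numbers went the same way as the ranks. In lists as deposited the Cxcl3 region held 7 summits in KO and 0 in WT libraries with R837, and the Cxcl5 region 1 and 0.

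Summits of the locus outside the 4 gene regions were counted from 100 kb before Cxcl5 to 100 kb after Cxcl2. In shortened lists the KO libraries of 2 h held 1 and 2, those of 4 h 6 and 5, and those of 6 h 5 and 1. The WT libraries of 2 h held 0 and 1, those of 4 h 1 and 5, and those of 6 h 2 and 1. The untreated KO libraries held 0 and 2, the untreated WT libraries 1 and 2. The mean was 3.33 ± 2.25 in KO and 1.67 ± 1.75 in WT libraries with R837 (SD, n = 6 each), a difference of 1.67 that did not pass the threshold (exact permutation within times, two-sided p = 0.167, of which the smallest possible is 0.00926). Without KO replicate 2 at 6 h the difference was 2.33, with a two-sided exact permutation p of 0.037. Without KO replicate 1 at 6 h or without WT replicate 1 at 4 h it was 1. In the lists as deposited the means were 9 ± 6.75 in KO and 3 ± 3.10 in WT libraries with R837 (SD, n = 6 each). That difference of 6 had an exact permutation p of 0.00926, the smallest possible, in lists that were longer in KO at 4 h and 6 h. R837 libraries held 1.25 summits more than untreated libraries in shortened lists (exact permutation within genotypes, two-sided p = 0.355).

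Several of these summits recurred. A site 14.7 kb upstream of Cxcl1 had a summit in 3 KO and 1 WT libraries with R837 and in 0 untreated libraries. A site 9.42 kb upstream of Cxcl1 had one in 4 KO, 3 WT and 1 untreated libraries. A site 1.45 kb past the end of Cxcl1, formed by the 3 WT summits just outside its region, had one in 0 KO and 3 WT libraries with R837 and in 0 untreated libraries. A site 4.45 kb past the end of Cxcl1 had one in 4 KO, 1 WT and 3 untreated libraries, the best at rank 1054.

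Before Cxcl2 a site at 5.21 kb had a summit in 3 KO, 3 WT and 0 untreated libraries, and a site at 3.01 kb had one in 4 KO, 1 WT and 0 untreated libraries. A site 1.82 kb past the end of Cxcl2 had one in 3 KO libraries with R837 and in 0 WT and 0 untreated libraries. A site 17.1 kb before Cxcl5 had one in all 4 untreated libraries and in 3 KO and 2 WT libraries with R837. These counts are over lists as deposited, and no test was made site by site.

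**Figure D4:**
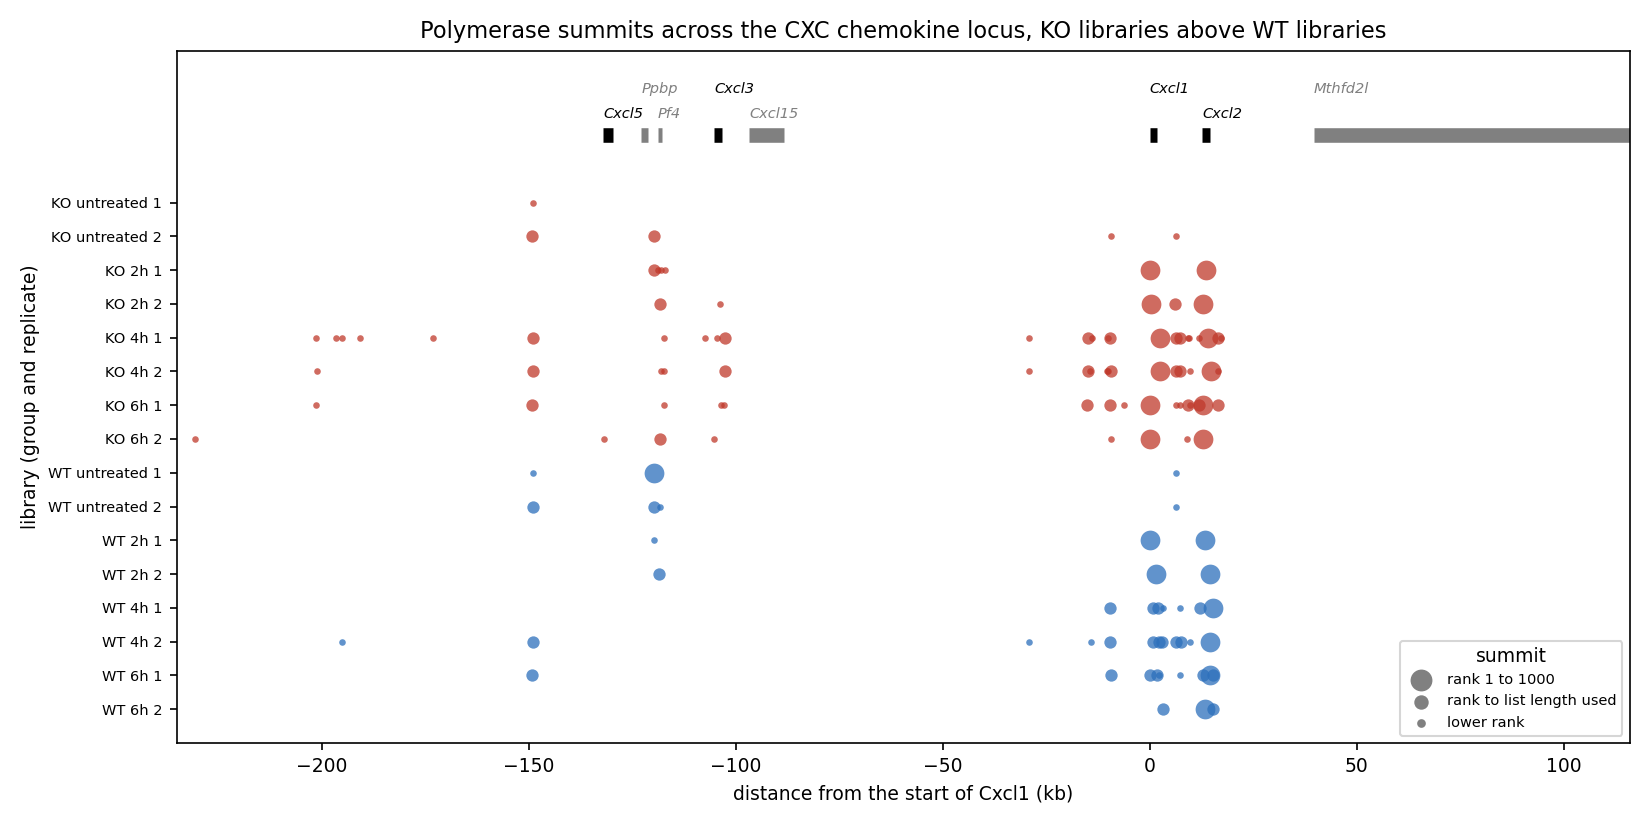
Summits of each library across the locus by distance in kb from the start of Cxcl1, KO libraries in the upper rows in red and WT libraries in the lower rows in blue, with annotated genes drawn above. Large points are ranks 1 to 1000, medium points lie inside the 8394 best summits and small points below them, and the large points at Cxcl1 and Cxcl2 are absent from untreated libraries.

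Of the other genes in the locus, Ppbp (a platelet CXC chemokine), Cxcl15 (a lung chemokine of mouse) and Mthfd2l (a mitochondrial folate enzyme) had no summit in any list. Pf4, which encodes platelet factor 4 and is also transcribed in macrophages, had a mean rank score of 0.22 with R837 and 2.09 in untreated libraries, a difference of -1.87 ± 0.56 (limma, adjusted p = 0.0203). Its rank score was thus lower with R837, where 29.4% of all genes tested were called lower. In the 3 untreated libraries that had one its best summit lay 854 to 892 bp before its annotated start. With no extension of the region the difference turned to 0.20. It was -0.84 with 1 rank per gene and -0.42 by the number of summits, both no longer called. The call was lost without KO untreated replicate 2, at -1.14, and without WT untreated replicate 1, at -1.12.

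Genes around neutrophil recruitment were taken from 7 lists of 62 genes in all, of which 46 were tested. The lists were fixed with earlier results of these data known, so nothing is read from their counts or median against the background. With R837 25 were called higher and 3 lower, beside the background of 5.77% and 29.4%, and their median difference was 1.13 against -0.33 over all genes tested. The 3 called lower were Pf4, Elavl1 (an RNA-stabilising protein, -1.0004) and Map3k7 (the kinase TAK1, -1.06), of which Elavl1 and Map3k7 are named after their values were seen.

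None of the 4 receptors and scavengers for these chemokines (Cxcr1, Cxcr2, Ackr1 and Ackr2) was tested, since fewer than 2 shortened lists held a summit at each. Of 7 other CXC ligands 2 were tested, Pf4, described above, and Cxcl16, a membrane-bound ligand of CXCR6. Cxcl16 was higher by 1.77 ± 0.60 (limma, adjusted p = 0.0355) and lost its call in 8 of 16 fits that left out 1 library.

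Of 9 signals for neutrophil growth and recruitment 6 were tested and 3 were called higher. Tnf was higher by 6.30 and Il1b by 3.48, cytokines that make endothelium adhesive for neutrophils. Il23a, a subunit of the cytokine IL-23, was higher by 0.22 and lost its call in 11 of 16 such fits. Csf1, the macrophage growth factor, had a difference of 0.02 and no call.

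Of 11 partners in recruitment 8 were tested and 7 were called higher. Saa3, an acute-phase protein made by macrophages, was higher by 7.19 ± 1.37, Icam1, the endothelial and myeloid ligand of neutrophil integrins, by 5.02, and Itgam, an integrin chain of myeloid cells, by 3.01. C5ar1, the receptor of complement C5a, had a difference of -0.90 and no call.

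Of 7 RNA-binding proteins that act on chemokine mRNAs 6 were tested, 3 were called higher and 1 lower. Zc3h12a, which encodes the RNase Regnase-1 that cuts chemokine mRNAs, was higher by 3.24, N4bp1 itself by 2.53 and Zc3h12c, a related RNase, by 1.504. Arid5a, which stabilises cytokine mRNAs, had a difference of -0.91 and no call.

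All 10 NF-kB factors and co-factors were tested and 8 were called higher. Tnfaip3, the ubiquitin-editing brake A20, was higher by 6.43, Nfkbia, the inhibitor IkB alpha, by 6.39 and Nfkbiz, a nuclear co-factor of inflammatory genes, by 5.20. Rel, the subunit c-Rel, had a difference of 0.95 and no call. By the number of summits Nfkbia had a difference of -0.27.

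Of 14 genes of the TLR7 route all 14 were tested, 3 were called higher and 1 lower. Ikbke, an IkB kinase-related kinase, was higher by 4.24, Myd88, the adaptor of TLR7, by 2.02 and Irak2, a kinase of the MYD88 complex, by 1.66. Casp8, the protease that cuts N4BP1, had a difference of -0.46 and no call.

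**Figure D5:**
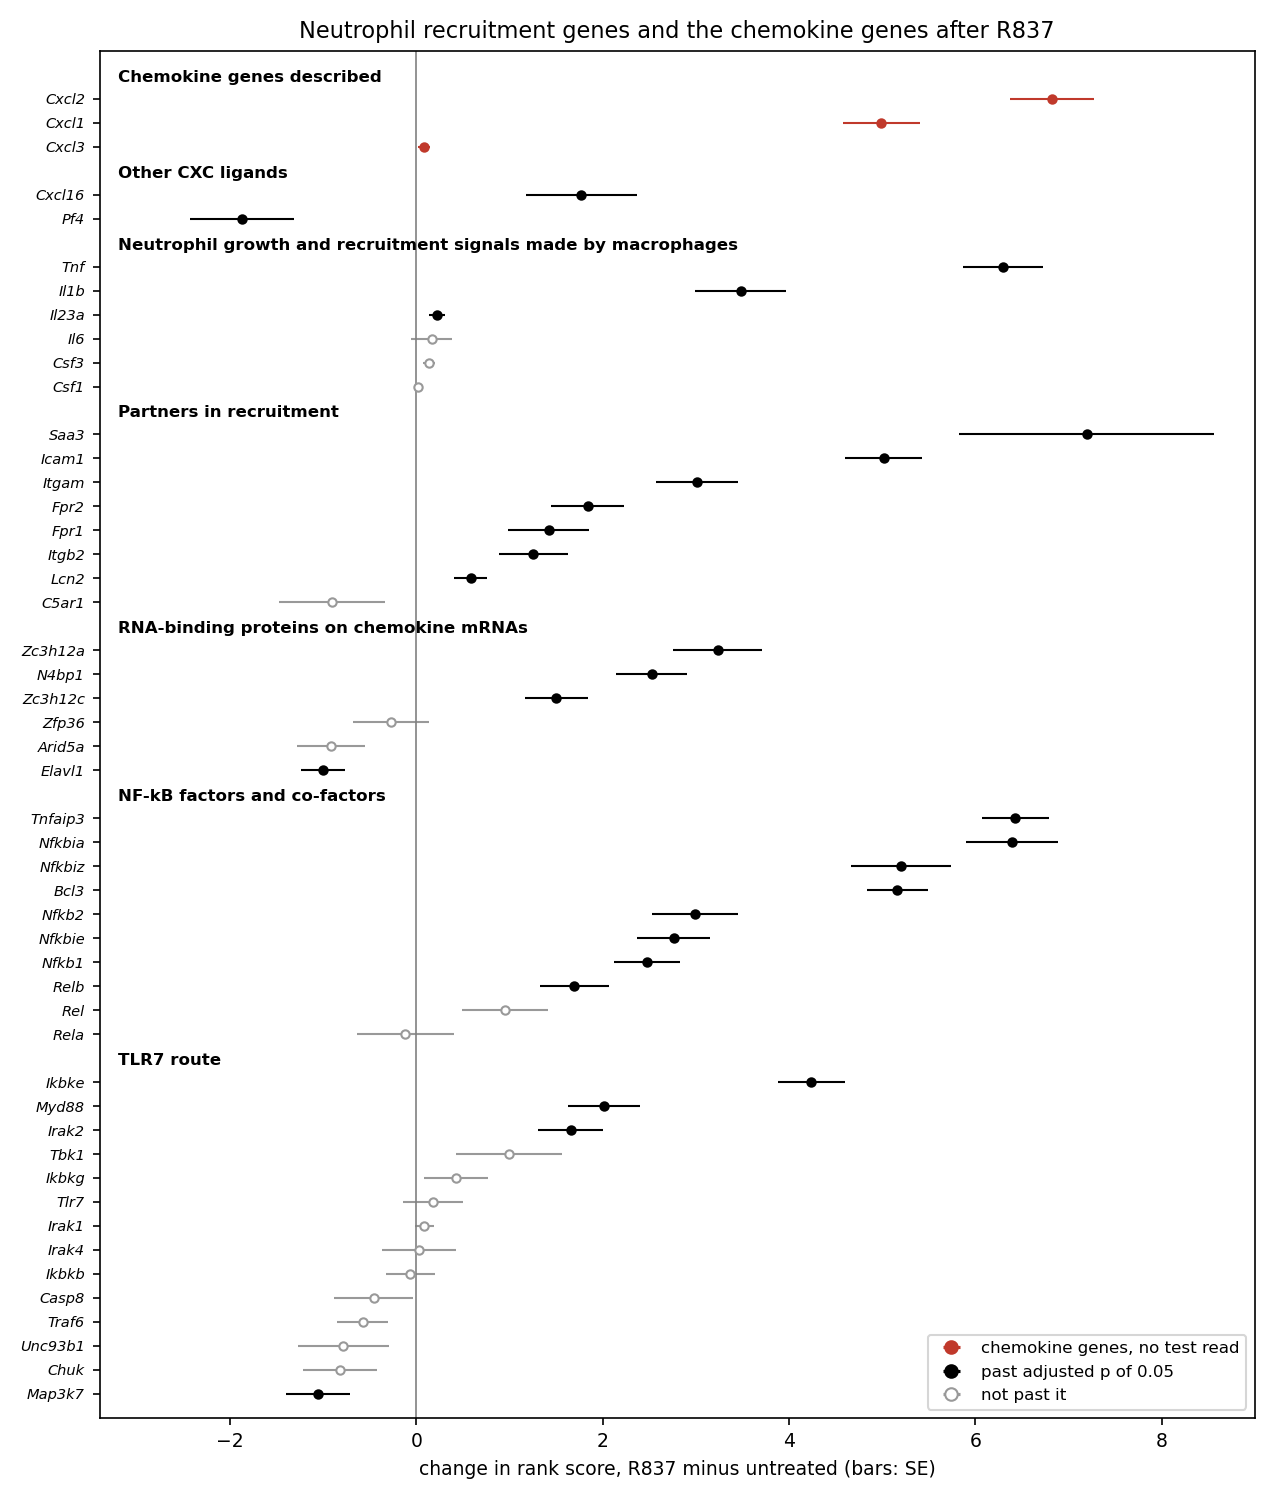
Difference in rank score between R837 and untreated libraries with its standard error for the chemokine genes in red and for the 46 tested genes of the recruitment lists, black where past an adjusted p of 0.05 and open grey where not. Tnf, Tnfaip3, Nfkbia and Saa3 lie at 6.30, 6.43, 6.39 and 7.19, in the range of Cxcl2 at 6.82.

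Between KO and WT over the R837 times 2 of these 46 genes were called higher and 0 lower by limma, beside the background of 0.448% higher. An unadjusted p under the threshold was found for 11 of the 46, beside 1037 of all 8475 genes tested. Since the lists were fixed with earlier results known, nothing is read from these counts. Lcn2, an iron-binding protein of neutrophils and activated macrophages, had a mean rank score of 1.11 ± 1.57 in KO and 0.05 ± 0.11 in WT libraries with R837 (SD, n = 6 each), with a difference of 1.06 ± 0.18 (limma, adjusted p = 0.0185). Lcn2 lost this call in 4 of 16 fits that left out 1 library. Tnfaip3 had 7.29 ± 0.56 in KO and 5.56 ± 1.29 in WT libraries with R837 (SD, n = 6 each), with a difference of 1.73 ± 0.36 (limma, adjusted p = 0.0488). Tnfaip3 lost this call in 14 of 16 such fits, and turned to -0.46 by the number of summits.

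At 4 h 0 were called higher and 1 lower, which was Il23a with a difference of -1.22 ± 0.14 (limma, adjusted p = 0.00164). At 6 h 3 were called higher, Tnfaip3 by 3.51, Lcn2 by 2.97 and Csf3, the neutrophil growth factor G-CSF, by 0.82. Il23a and Csf3 at these times are named after their values were seen, and both rest on 1 or 2 groups above a floor of 0. The response in KO minus that in WT was called for 0 of the 46 by limma. An unadjusted p under the threshold was found for 5 of the 46, beside 917 of all 8475 genes tested, so nothing is read from that count.

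Of 4960 genes with a summit in at least 8 shortened lists, the ones whose rank scores followed Cxcl1 most closely over the 16 libraries were Ccl5 (a T cell and monocyte chemokine, Pearson r = 0.92), Traf1 (a TNF receptor adaptor, 0.91) and Il27 (a cytokine subunit, 0.91). Those closest to Cxcl2 were Tnfaip3 (0.96), Tnfrsf1b (a TNF receptor, 0.95) and Tpm4 (a tropomyosin, 0.95). Cxcl1 and Cxcl2 had r = 0.86 with each other. These values describe libraries that share their groups and list lengths, and 4 of the 16 are untreated libraries at 0 for both genes.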

How the data were processed

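RNA polymerase II ChIP-seq of mouse bone marrow-derived macrophages was used as the authors' deposited summit lists, 1 per library and not pooled. Per the submitters' processing notes GSNAP, MACS2 and GRCm38 were used, and versions, call threshold and control are not given in the sources used here. The score deposited by the authors is a -log10 value, of a p-value or of a q-value (the files leave this unnamed), and served here to order the summits of each list. Read depth is unknown, so no counting interval is given. An input sample was not used here.

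Lists were shortened to 8394 summits, the shortest length, and limma 3.58.1 (R 4.3.3) was run on the rank scores of all 16 libraries, estimating a mean for each group, with a variance trend and Benjamini-Hochberg adjustment over 8475 genes with a summit in at least 2 lists, at a threshold of 0.05. The fit was tested on simulated data. Positions were fitted in the lists as deposited. The planned fits of position against untreated libraries were not run, since no untreated library had a summit in the 4 genes, and a fit among R837 libraries replaced them. Locus counts were compared by exact permutation in Python 3.11.15 with NumPy 2.4.6. Labels were permuted within times for KO against WT and within genotypes for R837 against untreated. The strand of Cxcl5 was not used.

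The 4 genes and the lists were chosen with earlier results of these data known. Genes named are the 4 chemokine genes, neighbours with a summit, and at most 4 genes a list, those with the largest called differences and the first in the alphabet of those tested and not called. Further names are marked in the text. Alternatives to list length, region, filter, measure, fit and libraries are given in the closing section.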

Additional observations from a re-analysis of the deposited data

Results flagged for a closer look

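The rank score of Cxcl2 in KO replicate 1 at 2 h was 6.39, lower than in the other 5 KO libraries with R837, which ranged from 7.95 to 8.71, and its gap to the nearest of them was over Dixon's 95% critical value for 6 samples. This was 1 of 8 groups tested in this way, and chance flags about 1 in 20 groups. Without that library the Cxcl2 difference between KO and WT over the R837 times was 2.63 and kept its call.

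The response of Cxcl1 to R837 in KO minus that in WT was 4.16 ± 0.83, a difference between genotypes that passed the threshold in the fit over all genes (limma). It equals the difference between KO and WT with R837, since all untreated libraries are at 0, and Cxcl1 was chosen from these values. The call was lost in 12 of 16 fits that left out 1 library and under 7 of 11 other settings.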

How the results depend on the processing

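The differences of Cxcl1 and Cxcl2 between R837 and untreated libraries were called in all 16 fits without 1 library and under all 11 other settings. Both genes were chosen from these values and had no summit in any untreated library. These fits use the same values again, so nothing is read from the kept calls. Replicate numbers did not pair the libraries, since correlations of same-numbered libraries over 28 group pairs ran from -0.11 to 0.18 with 1 over 0.1. With the replicate number as a block the genes called between KO and WT over R837 times were 35, against 63 without it, and for the difference between responses 24 against 79. The Cxcl1 difference between responses, Tnfaip3 between KO and WT and Il23a with R837 lost their calls with the block, which changed no other call of a named gene. The Cxcl1 difference between responses also lost its call in lists as deposited, with no extension, with a summit in at least 4 lists, with 1 rank per gene, by number of summits and with no variance trend. With no extension the Cxcl1 difference between KO and WT at 4 h turned to -1.93. Of genes called with R837 there were 2977, against 5842 in lists as deposited and 1045 with 1 rank per gene. Those called lower numbered 2488, against 627 with 1 rank per gene. Genes called between KO and WT numbered 104 with only R837 libraries, 41 with 5000 best summits, 240 in lists as deposited, 255 by number of summits and 96 with no variance trend. For the difference between responses they numbered 11 in lists as deposited, 2 with a summit in at least 4 lists, 1 with 1 rank per gene, 263 by number of summits and 8 with no variance trend. The median over the 4 genes with R837 was 3.24 in lists as deposited, 2.06 with no extension, 1.86 with 1 rank per gene and 0.61 by number of summits, and that between KO and WT was 1.99 in lists as deposited and -0.063 by number of summits. Position calls between KO and WT numbered 2 in shortened lists, against 7. The locus count difference of 1.67 was 6 in lists as deposited.

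By number of summits the difference turned to -0.13 for Cxcl1 and -0.26 for Cxcl2 between KO and WT, to -0.13 for Cxcl1 between responses, to -0.5 for Cxcl2 at 6 h, to 0.19 for Cxcl1 and 0.54 for Cxcl2 in WT after 2 h, to -0.46 for Tnfaip3 between KO and WT and to -0.27 for Nfkbia with R837. Pf4 turned to 0.20 with no extension. The cause was not tested. Leaving out 1 library at a time gave 2504 to 3044 genes called with R837, 12 (without WT replicate 1 at 2 h) to 286 (without KO replicate 1 at 6 h) between KO and WT and 9 (without KO replicate 1 at 2 h) to 350 (without WT untreated replicate 1) between responses. Medians ran from 2.46 to 2.61 with R837 and from 1.06 to 1.41 between KO and WT. Position calls ran from 1 to 8 between KO and WT and from 61 to 122 at 4 h, and locus count differences from 1 to 2.33 between KO and WT and from 0.75 to 1.75 with R837. The Cxcl1 difference between KO and WT ran from 3.85 to 4.47 and that of Cxcl2 from 1.96 to 2.67. The planned position fits against untreated libraries were not run. The position fits among R837 libraries, the differences between later times and 2 h and the locus counts outside the 4 regions were chosen after seeing the data. Depth is unknown and limits what a missing summit can show.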
